A study of Caenorhabditis elegans with 2 samples.

Results

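Candidate regions with a summit near both the end of one protein-coding gene and the start of another were examined in a chromatin immunoprecipitation sequencing (ChIP-seq) study of the nematode Caenorhabditis elegans. A region was taken from the authors' pooled list of candidates (peaks and background regions called on both replicates together). Its summit, the position of highest enrichment, had to lie from 200 bp upstream to 500 bp downstream of the end of a protein-coding gene. It also had to lie from 500 bp upstream to 200 bp downstream of the start of another protein-coding gene, on 1 of the 5 autosomes and over 200 bp from any tRNA, snoRNA or snRNA gene. Of the 30000 pooled candidates, 23565 were autosomal and far from such genes, and 1327 of these (5.63%) met the rule and are called end-start regions here. The rule used only positions, not signal.

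All libraries came from strain OP598, which carries the unc-119(tm4063) mutation and the integrated transgene wgIs598, expressing T26A5.8 with a C-terminal eGFP and FLAG tag. Whole young adults of mixed sex were collected 63 h after starved L1 larvae were synchronized, sonicated chromatin was precipitated with an anti-GFP antibody, and 2 biological replicates, numbered 3 and 4, form the only group. The transgene is additional to the endogenous gene, whole animals mix all tissues, and no other genotype, stage or treatment was analysed here, nor were control libraries. There were 30000 candidates in the pooled list and in the list of each replicate, and the authors' list of regions that passed their irreproducible discovery rate threshold (a test of whether replicates rank regions alike) held 369, of which 294 were autosomal. A candidate that overlapped one of these 369 by at least 1 bp is called thresholded. Read depth is unknown, because the lists hold no counts, so intervals given for shares are exact 95% binomial (Clopper-Pearson) intervals over regions or genes and do not cover variation between worms. Neighbouring regions can overlap, as 64 adjacent end-start regions did, so the intervals are too narrow to that extent. Signal is the authors' enrichment value. Levels were compared only within a list, since its scaling between lists is not known, and replicate values are set side by side without comparing their size.

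Many worm genes lie close together in the same direction, and some such clusters are operons, transcribed from a shared promoter into one long precursor RNA. Within an operon the upstream message is cut and polyadenylated while the downstream message receives a spliced leader, usually of the SL2 type, by trans-splicing, so that the sequence between the genes serves as both a gene end and a message start. At gene pairs outside operons, a terminator of one gene and the promoter of the next can share the same short stretch. A region between an end and a start therefore cannot be assigned to either gene by position alone.

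Nearly all end-start regions were at pairs of genes pointing the same way, which the rule itself favours. Of the 1327 regions, 1287 (97.0%) were tandem, with the gene that ends upstream of the gene that starts on the same strand, and 38 were at pairs on opposite strands, as at let-99 and the short gene K08E7.4, whose ends face each other. The remaining 2 had one same-strand gene within reach of another in a nested arrangement. A tandem pair was taken wherever one qualified, and a region counted as opposite-strand only where no qualifying pair shared a strand. On opposite strands, an end and a start lie this close only where the genes overlap or one is short. The tandem share was not compared with that among all annotated pairs of such spacing. Tandem pairs were called operon-like where the downstream gene began no more than 300 bp after the upstream gene ended, or overlapped it by no more than 100 bp. This spacing held for 846 of the 1287 tandem regions and is a distance, not evidence of a shared transcript. The median tandem gap was 184 bp, with quartiles at 102 and 379 bp. The windows reach at most 500 bp into the gap from either gene, so the rule favours short gaps. Gaps of 500 to 1000 bp made up 184 of the 1287 tandem regions. Among the 5383 annotated autosomal tandem pairs up to 1000 bp apart, 1895 had such gaps.

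A few intergenic tandem sequences, 6 in all, show what lay under the summits. These are the windows of 101 bases around the summit of the thresholded tandem regions of highest signal that lay outside exons of any gene on chromosomes II to V. They are given 5′ to 3′ on the strand of both genes, from the ce11 genome, and capitals mark the 11 bases centred on the summit. The acs-19/rpl-3 window is chrIII:3867491-3867591 on the plus strand, hsp-110/ufbp-1 is chrIII:8443771-8443871 on the minus strand, mnk-1/pro-1 is chrII:10542079-10542179 on the minus strand, herd-1/sql-1 is chrIII:12499361-12499461 on the plus strand, fcho-1/vig-1 is chrII:1320582-1320682 on the plus strand, and lpin-1/H37A05.4 is chrV:13650136-13650236 on the minus strand. Their GC content ran from 26.7% at lpin-1/H37A05.4 to 55.4% at fcho-1/vig-1.
acs-19/rpl-3: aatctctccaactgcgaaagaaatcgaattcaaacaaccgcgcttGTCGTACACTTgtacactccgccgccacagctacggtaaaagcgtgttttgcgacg
hsp-110/ufbp-1: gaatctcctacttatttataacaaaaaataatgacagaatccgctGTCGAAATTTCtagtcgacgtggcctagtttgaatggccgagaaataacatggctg
mnk-1/pro-1: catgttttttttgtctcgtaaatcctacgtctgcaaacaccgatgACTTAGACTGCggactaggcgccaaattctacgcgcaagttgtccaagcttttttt
herd-1/sql-1: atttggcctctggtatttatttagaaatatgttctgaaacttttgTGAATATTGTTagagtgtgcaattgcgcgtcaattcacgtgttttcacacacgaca
fcho-1/vig-1: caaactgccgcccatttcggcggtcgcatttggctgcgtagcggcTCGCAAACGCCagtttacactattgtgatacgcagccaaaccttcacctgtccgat
lpin-1/H37A05.4: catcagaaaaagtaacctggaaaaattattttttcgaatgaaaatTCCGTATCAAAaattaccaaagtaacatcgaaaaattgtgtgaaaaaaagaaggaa

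None of these 6 windows held any of the 4 short motifs searched, which are described with the base composition below. The pooled signal at acs-19/rpl-3 was 236.5, the highest of any end-start region, and the region ranked 2 among all 23565 candidates. It lay 443 bp past the end of acs-19, named for an acyl-CoA synthetase, and 313 bp before rpl-3, which encodes a protein of the large ribosomal subunit. Replicate 3 gave 138.1 and replicate 4 gave 98.09 there. At fcho-1/vig-1 the pooled signal was 106.4, with 52.36 in replicate 3 and 53.84 in replicate 4. At lpin-1/H37A05.4, beside the gene for the phosphatidate phosphatase lipin, it was 101.9, with 52.83 and 50.84 in replicates 3 and 4. The pairs fcho-1/vig-1 and lpin-1/H37A05.4 are outside the naming rule and were chosen for being intergenic.

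End-start regions were thresholded more often than the rest of the candidates. Of the 1327, 61 were thresholded (4.60%, interval 3.53 to 5.87), against 181 of the 22238 other candidates (0.814%, 0.700 to 0.941). Over all 23565 candidates the share was 1.03%. The end-start regions were 5.63% of the candidates and 25.2% of the thresholded ones. Their 61 thresholded candidates overlapped 54 distinct thresholded regions, and 50 of the 61 had the thresholded region's own summit within 100 bp. With that stricter match the shares were 3.77% of end-start regions and 0.607% of other candidates.

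The other position classes fell on both sides. Candidates at convergent ends, within reach of the ends of genes on both strands and of no start, were thresholded in 37 of 608 cases (6.09%, 4.32 to 8.29), and this interval overlaps that of the end-start regions. Candidates near a single gene end and no start were thresholded in 66 of 2740 cases (2.41%, 1.87 to 3.05), below the end-start interval. Those near a start and no end were thresholded in 27 of 2378 cases (1.14%, 0.750 to 1.65), and those near neither in 51 of 16512 (0.309%). With the summit match the order of the 5 classes was unchanged, with 3.77% of end-start regions against 4.44% of convergent ends and 1.61% of lone ends.

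**Figure D1:**
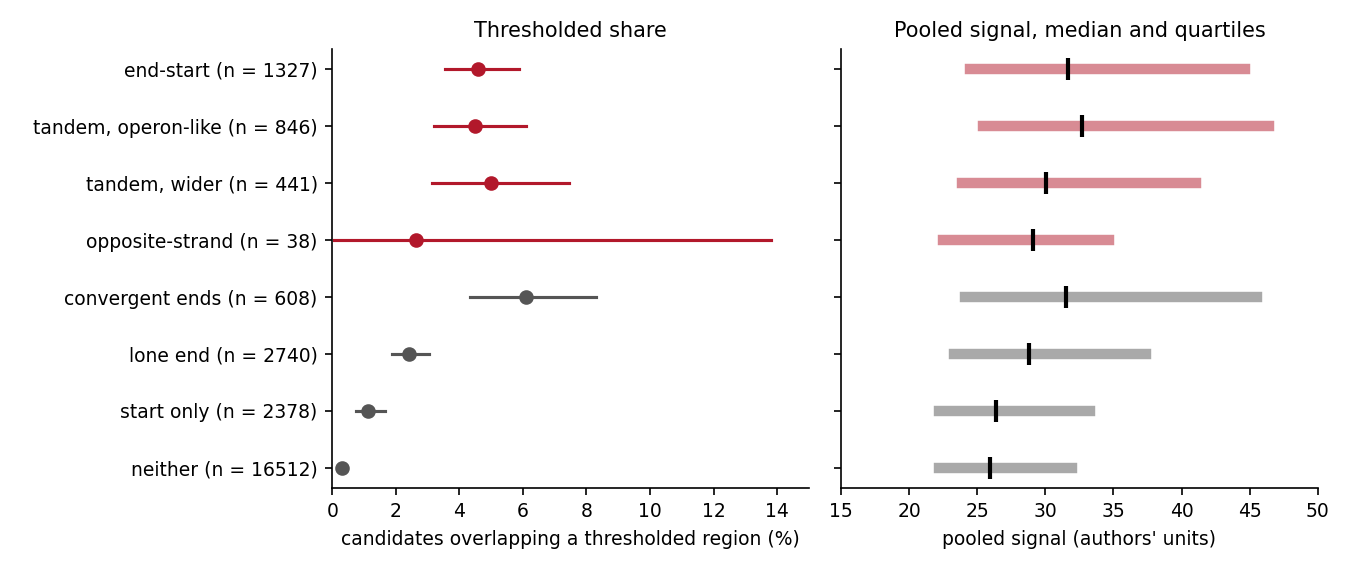
Thresholded share (left, percent of candidates, points with exact 95% intervals) and pooled signal (right, authors' units, tick at the median and bar between the quartiles) for end-start regions and their subsets in red and for the other position classes in grey. End-start regions stood at 4.60%, above lone ends at 2.41% and starts at 1.14%, with their interval overlapping that of convergent ends, and the opposite-strand subset of 38 had the widest interval.

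Counted over regions, neither operon-like spacing nor strand gave a separation that the counts could resolve. Of the operon-like regions, 38 of 846 were thresholded (4.49%, 3.20 to 6.11), against 22 of the 441 tandem regions with wider spacing (4.99%, 3.15 to 7.46). All tandem regions together gave 60 of 1287 (4.66%, 3.58 to 5.96), against 1 of 38 opposite-strand regions (2.63%, 0.0666 to 13.8). The opposite-strand interval contains the tandem share, so a difference between strands was not detectable with 38 regions. Neither of the 2 nested regions was thresholded.

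By the size of the gap, the share was 2 of 49 regions (4.08%) where the genes overlapped, 5.83% of 240 regions for gaps of 0 to 99 bp, 3.13% of 384 for 100 to 199 bp, 5.49% of 182 for 200 to 299 bp, 5.24% of 248 for 300 to 499 bp and 4.89% of 184 for 500 to 1000 bp. All of these intervals overlap, and no trend with distance could be read from them. The median pooled signal was 34.2 in the group of 0 to 99 bp and 29.4 in that of 500 to 1000 bp. Counted over annotated gene pairs instead, 53 of the 5383 autosomal tandem pairs from 100 bp of overlap to 1000 bp apart had a thresholded end-start region (0.985%). That share was 13 of 751 pairs (1.73%, 0.925 to 2.94) at 0 to 99 bp and 9 of 1895 pairs (0.475%, 0.217 to 0.900) at 500 to 1000 bp, and these 2 intervals do not overlap. The share of pairs with any candidate also differed, at 30.4% and 9.29% in these 2 groups. In wide gaps a summit can lie between the genes yet too far from one of them to meet the rule, so part of the gene space is not counted there.

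**Figure D2:**
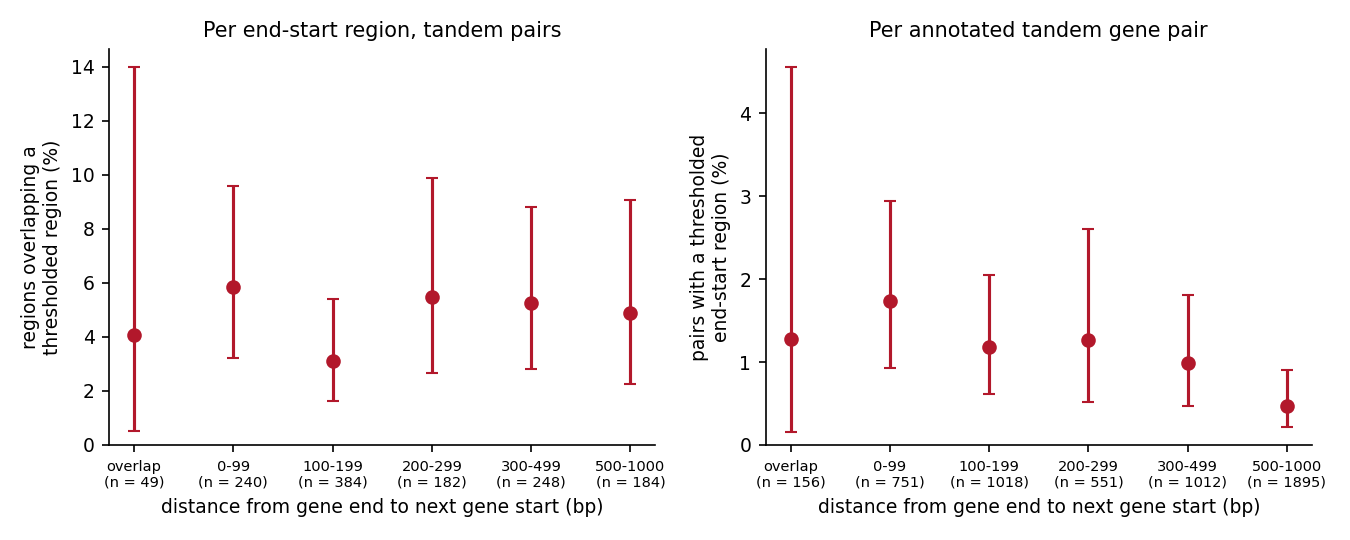
Share of tandem end-start regions (left) and of annotated tandem gene pairs (right) with a thresholded region, in percent with exact 95% intervals, by the distance from the gene end to the next gene start in bp. The shares per region ran from 3.13% to 5.83% with overlapping intervals, and the share per pair was 1.73% at 0-99 bp and 0.475% at 500-1000 bp.

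Signal was higher over the whole set and not only at its strongest regions. The median pooled signal was 31.7 in end-start regions (quartiles 24.5 and 44.6), against 26.4 in the other candidates, a ratio of 1.20. When the rule was applied to each replicate's own list, the medians were 19.97 for end-start regions and 16.87 for other candidates in replicate 3 (1242 end-start regions, ratio 1.18), and 17.47 for end-start regions and 14.94 for other candidates in replicate 4 (1301 end-start regions, ratio 1.17). Both replicates thus showed the higher median. Operon-like regions had a pooled median of 32.7, against 30.04 for tandem regions with wider spacing. Tandem regions had a median of 31.7 and opposite-strand regions 29.1, a ratio of 1.09 that was 1.13 in replicate 3 and 1.02 in replicate 4. Convergent ends had a median of 31.5, close to that of end-start regions, and lone ends had 28.8.

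End-start regions took a larger part of the strongest candidates than of all. They made up 23 of the 100 candidates of highest pooled signal, 122 of the 500 highest (24.4%) and 216 of the 1000 highest (21.6%), against 5.63% of all candidates. The 1000 highest were 4.24% of all candidates. Convergent ends made up 20 of the 100 highest and 10.7% of the 1000 highest, against 2.58% of all, and lone ends 24.8% of the 500 highest, against 11.6% of all. The larger part at high signal was therefore shared by the other classes at gene ends. At matched signal the shares were closer, taken as a ratio, than over the whole set. Between pooled signals of 80 and 120, 34 of 43 end-start regions were thresholded (79.1%, 63.96 to 89.96), against 84 of 115 other candidates (73.0%, 63.97 to 80.9), and from 120 upward all 10 and all 30 were. Between 50 and 80 the shares were 5.32% of 188 end-start regions and 3.23% of 835 other candidates, again with overlapping intervals. Between 30 and 50 they were 1.02% of 489 (0.333 to 2.37) and 0.314% of 6691 (0.194 to 0.479). Under 30 they were 0.335% of 597 (0.0406 to 1.20) and 0.130% of 14567 (0.0785 to 0.204). These intervals also overlap, but the end-start share was above that of all other candidates together in each band under 120. It was not above the other classes at gene ends under 50. Under 30, 1.41% of convergent ends and 0.606% of lone ends were thresholded. Between 30 and 50, 1.98% and 1.11% were. In the bands from 50 to 120 the end-start share was above both. Thresholding and signal come from the same reads, so they are not separate evidence.

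**Figure D3:**
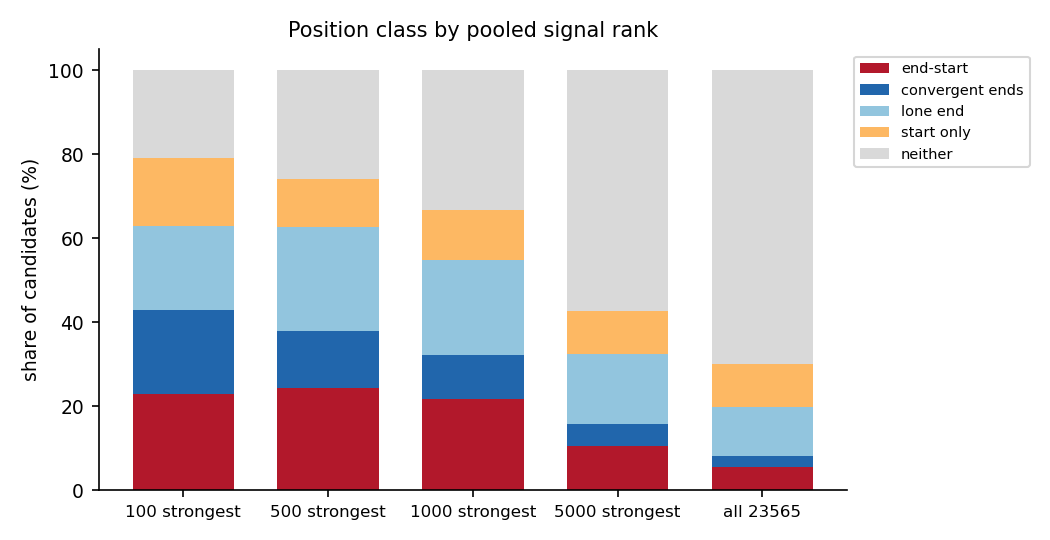
Share of candidates in each position class (percent, stacked), for the candidates ranked by pooled signal. End-start regions, in red at the base, made up 23% of the 100 strongest and 5.63% of all 23565.

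End-start regions and convergent ends were found in both replicates at equal shares. A replicate candidate covered the pooled summit in both lists for 646 of the 1327 end-start regions (48.7%), against 48.7% of convergent ends, 40.0% of lone ends and 31.1% of all other candidates, and for 58 of the 61 thresholded end-start regions. Candidates at or above the 90th percentile of signal in both replicate lists numbered 156 (11.8%, 10.1 to 13.6) of the end-start regions. Of these, 105 were not thresholded. The same share was 12.7% of convergent ends and 5.29% of lone ends. It was 3.11% of candidates near a start and no end and 1.19% of those near neither. Across the 646 regions, replicate signals had Pearson's r of 0.53 on log10 values and Spearman's rho of 0.455. Across the 6908 other candidates in both lists r was 0.391 and rho 0.263. These correlations are across regions of the same 2 libraries and are descriptive.

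**Figure D4:**
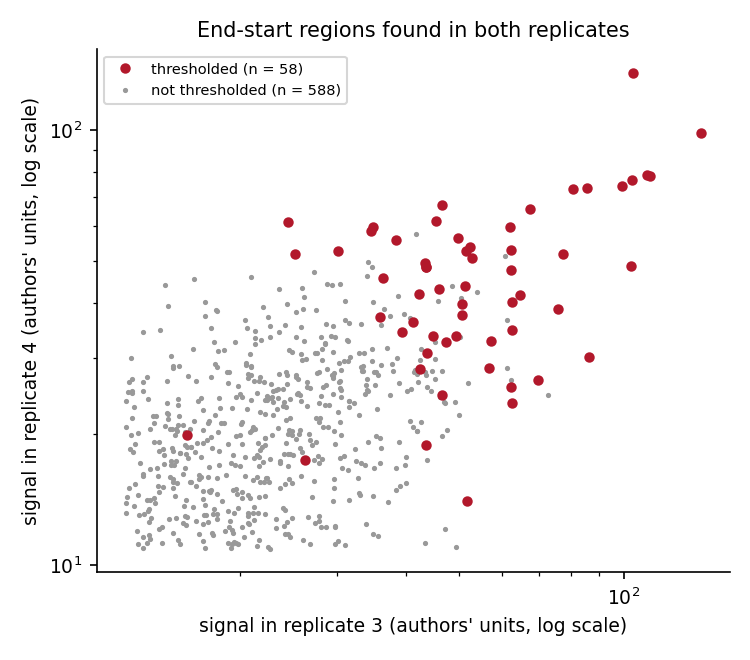
Signal of the candidate covering the pooled summit in replicate 3 (horizontal) and replicate 4 (vertical), both in authors' units on log scales, for the 646 end-start regions found in both. The 58 thresholded regions, in red, lay mostly at the upper right, with a few at low values in both.

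The highest signals after acs-19/rpl-3 were at genes of varied roles. The region at chromosome III, 13464594 to 13464855, lay 73 bp past the end of ant-1.1, a mitochondrial ADP/ATP carrier, and 95 bp before kel-3, over an exon of cdk-5 on the annotation. It had a pooled signal of 223.0, with 103.9 in replicate 3 and 135.0 in replicate 4. Within its own list it was at the 99.92 percentile in replicate 3 and at the 99.99 percentile in replicate 4. The region at icd-2/wwp-1, chromosome I, 536796 to 536988, had a pooled signal of 189.0 (111.6 and 78.12 in replicates 3 and 4). It lay 315 bp past icd-2, a subunit of the nascent polypeptide-associated complex, and 220 bp before wwp-1, a ubiquitin ligase gene, over the non-coding RNA gene Y65B4BR.10.

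Operon-like pairs held most of the next regions. At nap-1/D2096.7, chromosome IV, 8377529 to 8377659, the genes are 74 bp apart and the pooled signal was 181.2 (103.4 and 76.66 in replicates 3 and 4). nap-1 encodes a nucleosome assembly protein. At hrpa-1/F42A6.6, chromosome IV, 3336593 to 3336952, it was 179.5 (110.1 and 78.56), in a gap of 46 bp behind hrpa-1, an hnRNP A RNA-binding protein. The mstr-1/kin-14 pair, chromosome I, 7079283 to 7079737, overlaps by 14 bp and had 155.4 (99.1 and 74.25). K08D12.3/rpi-2 on chromosome IV, 1711157 to 1711516, had 155.0 (85.77 and 73.44). In all 4 the summit was past the annotated start of the downstream gene, by 13 to 100 bp.

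The next regions by signal included pairs with several kinds of gene. At cey-2/F46F11.7, chromosome I, 5620825 to 5620945, behind the Y-box protein gene cey-2, the pooled signal was 146.9 (103.1 in replicate 3 and 48.65 in replicate 4), at the 99.91 and 99.31 percentiles of those lists. At F26A3.4/ego-1, chromosome I, 7656711 to 7656851, it was 138.8 (80.69 and 73.21), and the summit was 452 bp before ego-1, an RNA-dependent RNA polymerase gene. At rpl-43/xrn-2, chromosome II, 14155617 to 14155976, it was 131.7 (67.51 and 65.86). xrn-2 encodes a nuclear 5′-to-3′ exonuclease known for its part in transcription termination, and rpl-43 is a ribosomal protein gene. At fib-1/rps-16, chromosome V, 15000271 to 15000630, it was 115.8 (61.92 and 59.69). fib-1 encodes fibrillarin, the methyltransferase of box C/D snoRNPs.

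The others of the 15 strongest tandem regions had pooled signals from 109.2 to 119.0. At hsp-110/ufbp-1, behind a gene for an HSP110-type chaperone, the pooled signal was 119.0 (77.25 in replicate 3 and 51.89 in replicate 4). At mnk-1/pro-1 it was 114.5, with 86.38 in replicate 3 and 30.15 in replicate 4. At herd-1/sql-1 it was also 114.5, with 46.58 in replicate 3 and 67.33 in replicate 4. In percentiles of each list, mnk-1/pro-1 was at 99.84 in replicate 3 and 95.94 in replicate 4, and herd-1/sql-1 at 98.57 in replicate 3 and 99.8 in replicate 4. At memi-2/Y62E10A.13 it was 109.2 (62.11 and 52.84).

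The single opposite-strand candidate that was thresholded touched a stronger region beside it. It lay at let-99/K08E7.4, chromosome IV, 12570779 to 12571138, 337 bp past the end of let-99, a spindle-positioning gene, and 188 bp inside K08E7.4. Its pooled signal was 36.35, with 51.69 in replicate 3 and 14.04 in replicate 4, and the thresholded region it touched had its summit over 100 bp away and a signal of 87.87 in the thresholded list. The lowest signal in that list was 87.66, so lower values here belong to pooled candidates that overlap such regions. Of the 61 thresholded end-start regions, 17 had a pooled signal under 80, and 10 of these shared their thresholded region with a candidate of higher pooled signal. Conversely, 9 of the 53 end-start regions at 80 or more were not thresholded.

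Among those 9 was the tagged gene itself. The region at dlc-1/T26A5.8, chromosome III, 6462582 to 6462941, had a pooled signal of 95.67, with 41.71 in replicate 3 and 57.69 in replicate 4. dlc-1 encodes a dynein light chain. The summit lay 201 bp past the end of dlc-1 and 94 bp inside T26A5.8, in a coding exon. The transgene adds copies of this stretch to the genome, and the part of these copies in the signal was not tested. The strongest end-start region without a threshold call was at Y39B6A.42/Y39B6A.43, with 98.44 (61.32 in replicate 3 and 36.53 in replicate 4). The next after T26A5.8 were pas-2/D1054.3, with 93.58 (61.28 and 28.40), rsp-6/imp-3, with 92.45 (53.85 and 42.33), and pas-3/chp-1, with 83.82 (50.31 and 33.41). pas-2 and pas-3 encode alpha subunits of the proteasome core and rsp-6 an SR splicing factor.

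Summits in tandem pairs lay mostly past the gene end, whether thresholded or not. Among thresholded tandem regions 54 of 60 summits (90%) were downstream of the end, at a median of 168 bp past it, against 1085 of 1227 (88.4%) and a median of 189 bp among those not thresholded. In operon-like pairs the thresholded summits had a median of 146 bp past the end and 57.5 bp inside the next gene, against 173.5 and 57 bp in those not thresholded. At or past the start of the downstream gene lay 28 of 38 thresholded summits (73.7%, 56.9 to 86.6) and 536 of 808 not thresholded (66.3%, 63.0 to 69.6). In the wider tandem pairs the summits lay between the genes in 18 of 22 thresholded regions (81.8%) and in 337 of 419 others (80.4%). The rule limits where a summit can lie, so these values describe position within the allowed windows.

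**Figure D5:**
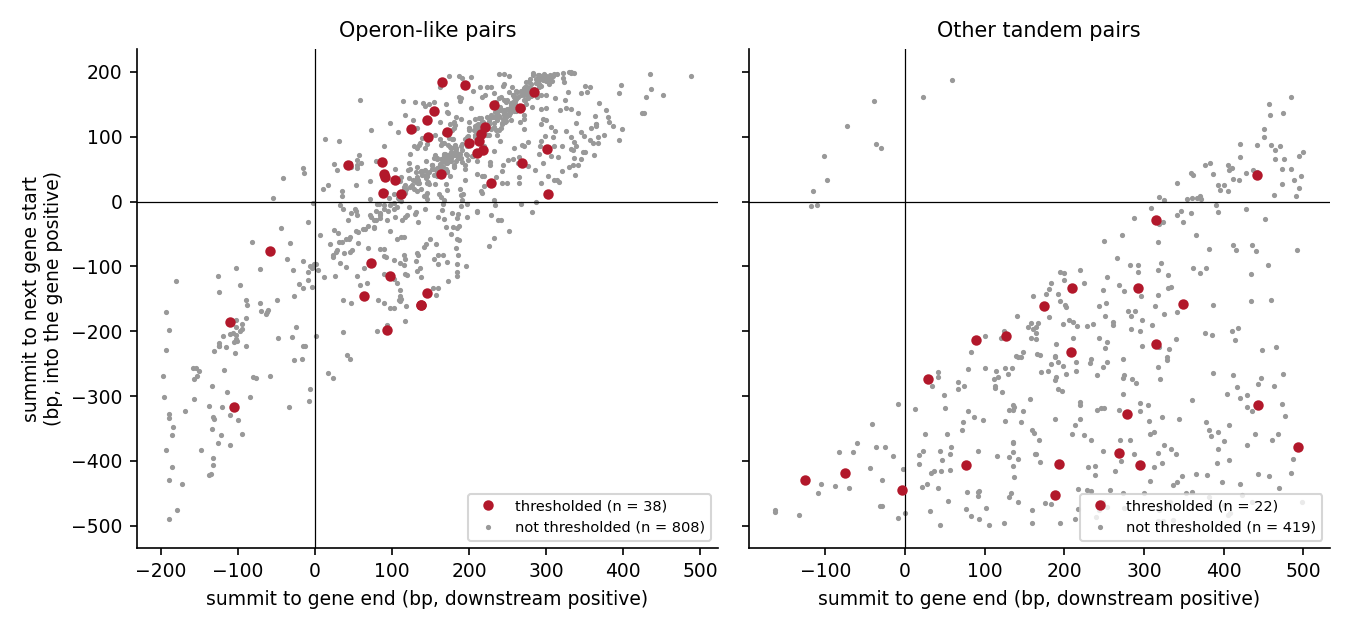
Distance of the summit from the gene end (horizontal, bp, positive downstream) and from the start of the next gene (vertical, bp, positive inside that gene) for tandem end-start regions, with operon-like pairs on the left and other tandem pairs on the right. Red thresholded points spread over the same area as the grey points, with 54 of 60 to the right of the gene end.

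By annotation, 24 of the 61 thresholded summits (39.3%) were in a coding exon of the starting gene, against 401 of 1266 not thresholded (31.7%). Outside exons of any gene lay 22 (36.1%), against 486 (38.4%). The 3′ UTR of the ending gene held 6 (9.84%), against 105 (8.29%). Introns held 2 (3.28%, interval 0.400 to 11.3), against 140 (11.1%, 9.38 to 12.9). The intervals of thresholded and other summits overlapped in each of these classes.

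GC content within 50 bp of the summit was 42.9% ± 8.22 (SD over 60 regions) in thresholded tandem regions, against 40.0% ± 8.20 in the 1227 not thresholded. Outside the end-start set it was 44.1% ± 8.78 over 181 thresholded candidates and 42.8% ± 8.21 over 22057 not thresholded. In operon-like pairs it was 44.7% ± 7.27 over 38 regions, against 40.1% ± 8.05 over 808. In windows of the same length 400 bp away, operon-like pairs had 38.7% ± 8.35, against 35.7% ± 8.44, so the mean was higher in the thresholded regions at the summit and beside it. In the wider tandem pairs the means at the summit were 39.9% ± 9.02 over 22 regions, against 39.7% ± 8.48 over 419. The SDs are over single regions, and no test of these means was made. The windows were searched on the gene strand for AATAAA, the common polyadenylation signal, for TTTCAG, the end of the worm splice acceptor consensus, and for TATAAA, the core of the TATA box. GCGCAC was searched on both strands, and no 2 of these motifs contain one another. AATAAA was in 5 of 60 thresholded tandem windows (8.33%, 2.76 to 18.4), against 10.2% of those not thresholded. TTTCAG was in 4 (6.67%, 1.85 to 16.2), against 13.4%, and TATAAA in 1 (1.67%), against 4.32%. GCGCAC was in 2 (3.33%), against 2.12%. Among candidates outside the end-start set that were not thresholded, the shares were 6.08% for AATAAA, 8.49% for TTTCAG, 3.65% for TATAAA and 2.39% for GCGCAC, read on the forward strand where a strand applies. Motif matches are descriptions of letters and not of sites in use.

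Cytosolic ribosomal protein genes supplied the most thresholded end-start regions of the 15 gene lists. A member of this list was the ending or the starting gene at 52 end-start regions, of which 13, at 12 gene pairs, were thresholded (25%), with a median pooled signal of 47.02, against 4.60% and 31.7 for all end-start regions. As the gene that ends, 8 of the 36 list genes with an end-start region had a thresholded one: rpl-43, rpl-17, rps-4, rps-5, rpl-16, rpl-36.A, rla-2 and rps-22. As the gene that starts, 4 of 15 did: rpl-3, rps-16, rpl-27 and rla-1. The thresholded summits at rps-4 and rla-1 lay 341 and 424 bp from the nearest tRNA, snoRNA or snRNA gene. Of all genes with an end-start region, 4.30% had a thresholded one as the ending gene and 4.30% as the starting gene. Of all 79 genes of the list, 10.1% were the ending gene and 5.06% the starting gene of a thresholded end-start region, against 0.313% and 0.313% of the 17242 autosomal protein-coding genes. The list was known to stand out in these data before it was counted here.

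The chaperone and RNA polymerase III lists had their thresholded regions at few gene pairs. Genes of the chaperone list were at 23 end-start regions, of which 6 were thresholded (26.1%). These 6 lay at 4 gene pairs, since hsp-110/ufbp-1 and dnj-20/hal-3 held a second, weaker candidate each. They had hsp-110, cct-2, hsp-6 and dnj-20 as the ending gene, and no gene of the list as the starting gene. The genes sti-1, daf-41 and bag-1 were not on this list. The thresholded regions at sti-1/srbc-58, daf-41/ztf-8 and mei-2/bag-1 were therefore not counted. At cct-2/mrpl-50, between a chaperonin subunit gene and a mitochondrial ribosomal protein gene, the pooled signal was 94.56 (50.60 in replicate 3 and 39.84 in replicate 4). At hsp-6/adss-1, behind the gene of the mitochondrial HSP70, it was 88.35 (43.34 and 49.44). The list for RNA polymerase III and small RNA transcription was at 11 end-start regions, of which 3 were thresholded, with rpac-19 and rpc-2 as the starting gene. At ubc-7/rpac-19, before the gene of a subunit shared by RNA polymerases I and III, the pooled signal was 100.3 (64.65 and 41.68), and a second, weaker candidate at the same pair had 52.24. At hach-1/rpc-2 it was 88.55 (43.64 and 48.43).

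The other lists held few or no thresholded regions. Mitochondrial ribosomal proteins had 1 of 29, the region at mrpl-50. Translation factors and tRNA synthetases had 1 of 32, at zyg-9/fars-3, with 75.40 (35.90 in replicate 3 and 37.20 in replicate 4). Oxidative phosphorylation also had 1 of 29, at atp-2/prmt-5, behind the ATP synthase beta subunit gene, with 104.4 (75.72 and 38.70). The proteasome had 1 of 18, at pbs-5/dus-2, with 95.92 (69.63 and 26.58), over an exon of Y54E5A.8. The proteasome regions had a median pooled signal of 56.7, the highest of the 15 lists, although most were not thresholded. Splicing and RNA processing had 2 of 25, at hrpa-1 and at pisy-1/snrp-200, with 88.95 (34.83 and 59.68) at the gene of the U5 snRNP helicase. None were thresholded among 26 regions of RNA polymerase II and Mediator genes, 21 of the germline list and 11 of nuclear hormone receptors. The same held for 9 regions of collagens, 9 of neuronal genes, 7 of histones and 3 of muscle genes. The lists were drawn by name patterns and do not hold every gene of a kind. The thresholded regions at F26A3.4/ego-1 and mei-2/bag-1, for example, were not in the germline list. A count of 0 allows a share of up to 11.5% for the 26 regions (3 counts of the total) and more for the shorter lists, so a share near 4.60% would not have been detectable.

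The thresholded share was 18 of 280 on chromosome III (6.43%, 3.85 to 9.97), 13 of 241 on chromosome IV (5.39%), 12 of 264 on chromosome I (4.55%), 11 of 261 on chromosome II (4.21%) and 7 of 281 on chromosome V (2.49%, 1.007 to 5.07). The intervals of chromosomes III and V overlap. Among other candidates the highest and lowest shares were on the same chromosomes, at 1.26% on III and 0.350% on V.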

How the data were processed

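ChIP-seq region lists on ce11 were read as the authors deposited them: 1 per replicate, 1 from both replicates pooled and 1 thresholded list. Each deposited signal value is the enrichment given by the authors' peak caller, with scaling, caller and aligner not given in the sources used here. The deposited −log10 q-value was not used for ranking. The q-value and signal come without counts, so depth is unknown. Gene ends, starts and exons came from Ensembl release 115 on WBcel235, the same assembly as ce11, and bases from the RefSeq genome of that assembly. All 4 lists ended within its chromosomes. Windows, classes, shares and medians were computed with Python 3.11.15, pandas 2.3.3, numpy 2.4.6 and SciPy 1.17.1, and figures with matplotlib 3.10.9. A replicate value is that of the strongest replicate candidate that covers the pooled summit, so neighbouring pooled candidates can share it. The steps were tested on simulated data. No p-values were computed, since regions are not replicates of a condition.

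The genes named are those at the 15 thresholded tandem regions of highest signal, up to 5 thresholded opposite-strand regions, the 5 strongest regions without a threshold call and up to 3 thresholded regions per gene list. Other names were chosen after their values were seen. The end-start rule, the lists and the tests were chosen with earlier results of these data known, and name patterns of the lists were tidied after the strongest regions had been seen. Alternatives varied the windows, the overlap, the small RNA distance, chromosomes, operon spacing, transcripts and replicates.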

Additional observations from a re-analysis of the deposited data

How the results depend on the processing

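Narrower windows (ends from 100 bp upstream to 300 bp downstream) left 600 end-start regions, a signal ratio to other candidates of 1.24 and a tandem to opposite-strand ratio of 1.20. Wider windows gave 2245 regions, of which 3.52% were thresholded, and a signal ratio of 1.12. With X included that ratio was 1.19, and in the lists of single replicates it ran from 1.17 to 1.18. Against only the 184 strongest thresholded regions, the thresholded share was 1.58% of all end-start, 1.63% of tandem and 1.77% of operon-like regions, which follows from matching fewer regions. The opposite-strand share rests on 1 region and was 0 with narrower windows, 50% reciprocal overlap, thresholded summits within 100 bp, the stronger thresholded regions and each thresholded region counted once, and ran from 0 to 3.23% in single replicates. The other shares stayed within their main intervals, including operon-like shares of 5.802% at spacings up to 100 bp and 4.67% up to 500 bp. The other numbers of regions stayed within 1.5 times. The other signal ratios changed by no more than the SD of the 2 single-replicate ratios. That SD was 0.0104 for end-start to other candidates and 0.0784 for tandem to opposite-strand.

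The transcript with the longest coding sequence and counting each region once were added after seeing the data. A choice by canonical transcript was not run, because the annotation used marks none. No paired analysis was possible because there is 1 group. The lists hold no read counts, so what depth limits could not be measured, and 2 replicates of 1 strain limit every value.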
